A study of Mus musculus with 14 samples.

Results

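The comparison described here is that of mice given tumour-specific cytotoxic T lymphocytes (CTLs) together with an antibody that blocks interferon gamma against mice given the same cells with a control rat IgG. The labels place 6 of the 14 arrays of the series in it, 3 with the antibody (labelled aIFNg) and 3 with IgG, from days 3, 5 and 7 after the transfer. All mice were C57BL/6 and carried tumours of B16F10, a melanoma line of the same strain, and the mice of both arms received culture-activated CTLs specific for gp100, the melanosome protein that Pmel encodes. The transfer took place 9 days after the tumour cells were given, and antibody or IgG was injected into the peritoneum on days 0 and 2. Each array holds the pooled RNA of whole tumours of 3 mice, so a level mixes tumour cells with every host and transferred cell in the tissue. A single array per arm and day leaves the 3 days as the only replicates. Arrays of CTLs without antibody (labelled CTL) and of tumours without CTLs (labelled Untreated), 3 each from the same days with 4 tumours per array, serve as the background.

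Interferon gamma is a cytokine secreted by activated T cells and natural killer cells. It binds a receptor made of Ifngr1 and Ifngr2 on nearly all cells, whose kinases Jak1 and Jak2 phosphorylate transcription factors of the STAT family; STAT dimers bind gamma-activated sites (GAS) and switch on secondary factors such as Irf1, which act through interferon-stimulated response elements (ISRE). In tumours the cytokine is known for raising antigen presentation, for attracting further T cells, for inducing inhibitory ligands such as PD-L1, and for acting on growth and on blood vessels.

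Levels are log2 processed signals relative to the 75th percentile of the same array, which is 0 on this scale. A change is the antibody arm minus the IgG arm on the same day, averaged over 3 days (n = 3 days). It is given as log2 ± SE. The SE comes from limma's fit, in which the arrays of all arms on these days set the spread. It is not the scatter of the 3 daily antibody minus IgG differences. A gene is called where limma's p, adjusted over all genes by Benjamini-Hochberg, is below 0.05. Of 17044 genes tested, 1011 (5.93%) fell and 1129 (6.62%) rose. The falls were the larger changes. Among the genes that fell, the median change was -1.55. With the 141 that no antibody array measured well above background set to the smallest change their signals allow, the median was -1.36, and 656 fell at least 2-fold, 250 at least 4-fold and 93 at least 8-fold. Among those that rose, the median was 0.65, or 0.62 with the 68 dim in the IgG arm at their bound, and the corresponding numbers were 139, 8 and 0. By separation of the arms alone, all 3 antibody arrays lay below all 3 IgG arrays for 14.9% of genes and above them for 21.3%. Compared day by day, 4049 genes were lower with the antibody on all 3 days and 5662 were higher. The median over all genes was 0.06, and scaling each array to its median in place of the 75th percentile moves it to 0.16.

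The number of calls rests on how the spread is estimated. The spread came from the 12 arrays of days 3, 5 and 7, a choice made with the counts of a fit of all 14 arrays known. That fit gives the same changes, since day 1 holds neither arm, but calls 1 gene lower and 1 higher, with 4526 genes at an unadjusted p below 0.05 against 5040. Leaving out day 3, day 5 or day 7 left 332, 44 or 751 genes lower and 67, 6 or 630 higher. Spots well above background made up 48.9% to 59.7% of an array. Each arm kept its array position on all slides, and the effect of position and that of the arm cannot be told apart. P-values rest on how far arrays of pooled tumours, of all arms, depart from the fitted arm and day levels. They do not measure the spread between mice. Near-identical genes, such as those of the guanylate-binding, class I and Ly49 families, may share signal on a probe.

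**Figure D1:**
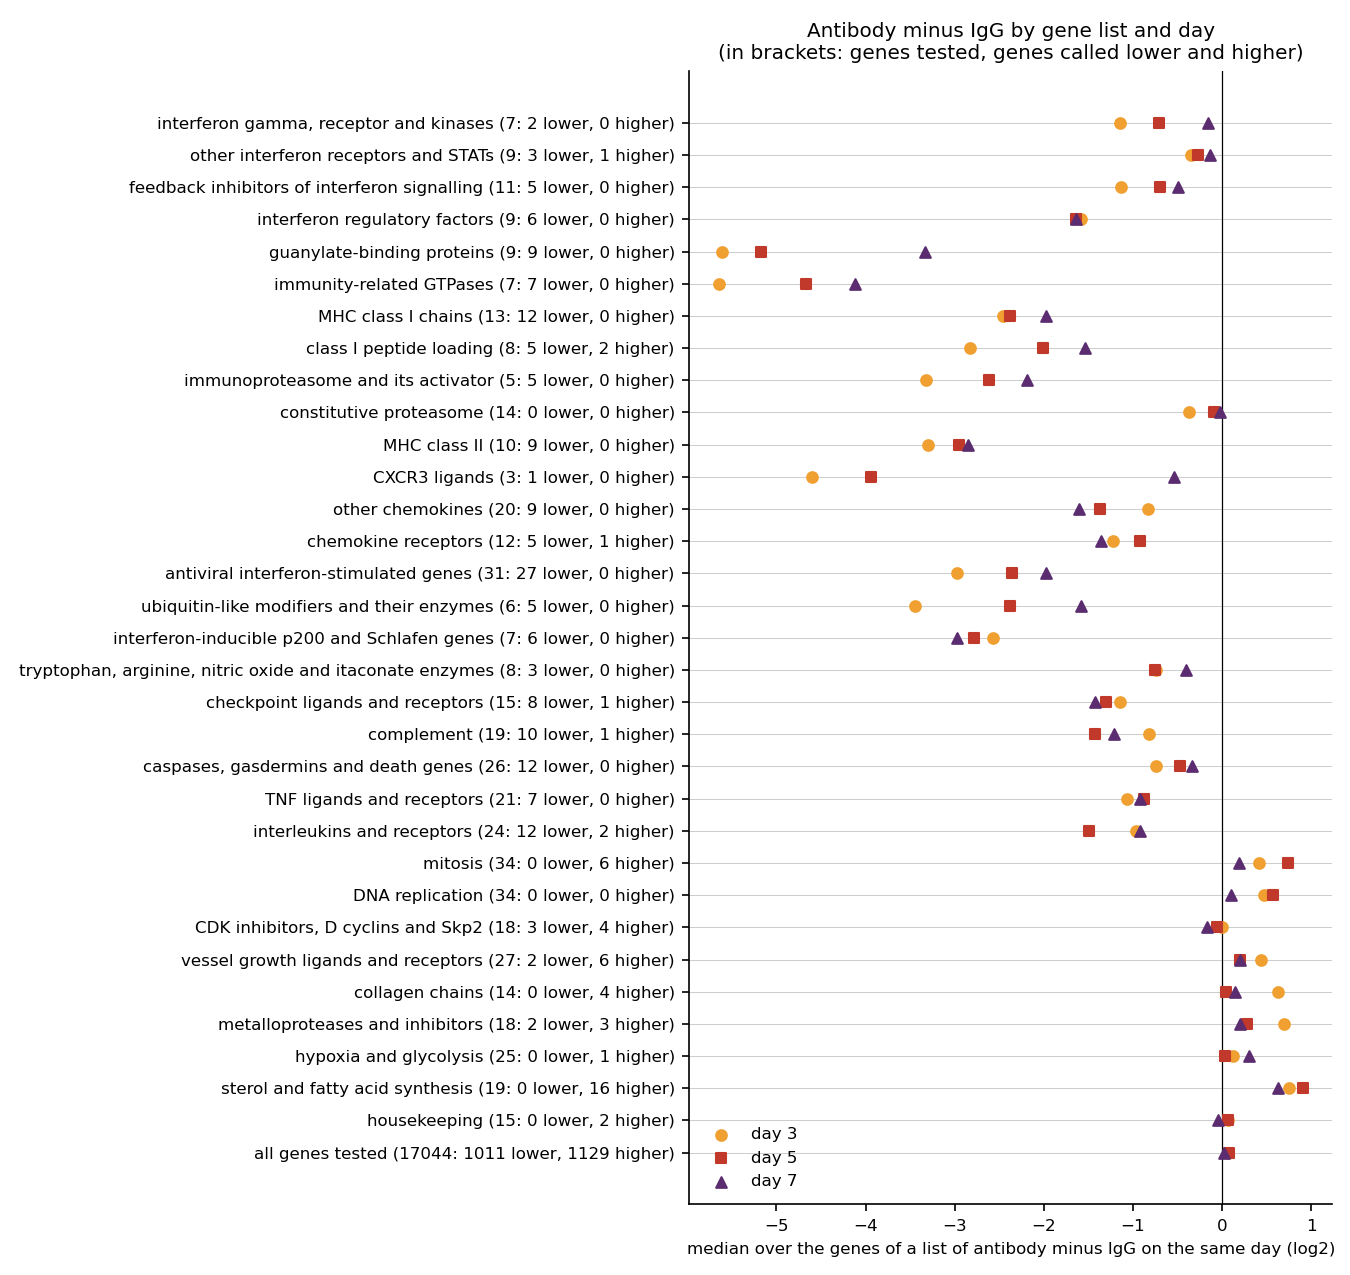
Median over the genes of each list of the antibody minus IgG difference (log2, horizontal axis), with 1 symbol per day; brackets give the genes tested and called in each direction. The lists of guanylate-binding proteins and immunity-related GTPases lie farthest to the left, the constitutive proteasome and housekeeping lists near 0, and sterol synthesis to the right.

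The ligand and its receptor came first. Ifng, which encodes the blocked cytokine, stood at 0.23, -1.58 and -3.24 with the antibody and 2.05, 0.36 and -1.62 with IgG, on days 3, 5 and 7. It was lower in the antibody arm on each day, and the arms overlapped because the levels of both were lower on later days. The difference of -1.79 ± 0.56 did not pass the test (adjusted p = 0.0746), and both probes of the gene gave it (-1.93 and -1.79). The antibody acts on the protein, so this transcript is no check of the block. In tumours without CTLs Ifng lay at -4.96, -4.32 and -6.05. In RNA of whole tumours, fewer cells of a type and less RNA per cell cannot be told apart, here and for every gene below.

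Neither receptor chain was called: Ifngr1, the ligand-binding chain, differed by 0.34 ± 0.12 (adjusted p = 0.0979) and Ifngr2, the signalling chain, by 0.16 ± 0.16 (0.517). The kinases Jak1 and Jak2 differed by -0.27 ± 0.10 and -0.67 ± 0.22, with adjusted p of 0.109 and 0.0904, and were not called either. Among the signal transducers, Stat2, which acts in type I interferon signalling, fell by 2.66 ± 0.48, Stat4, activated by interleukin 12, by 1.67 ± 0.26, Stat3 by 1.54 ± 0.30 and Stat5b by 0.50 ± 0.12. The type I interferon receptor chain Ifnar1 rose by 0.56 ± 0.12. In all, 2 of 7 genes of the interferon gamma receptor and its kinases and transducers fell, as did 3 of 9 genes of other interferon receptors and STATs, of which 1 rose. Without day 3 the falls numbered 2 and 0, and without day 5 none; the rise of Ifnar1 passed without day 7 but not without day 3 or day 5.

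Genes that restrain the pathway were lower too: 5 of 11 listed feedback inhibitors were called lower and none higher. Socs1, an inhibitor of the Jak kinases that interferon gamma itself induces, stood at 0.10, -0.24 and -0.87 with the antibody and 5.03, 3.48 and 2.08 with IgG. No antibody array reached an IgG array, and untreated tumours lay at -0.83, -0.62 and -0.50. Socs1 fell by 3.87 ± 0.59, or 14.6-fold (adjusted p = 0.00650). Usp18, the protease that removes Isg15 and dampens type I signalling, fell by 3.65 ± 0.37, Trim21 by 2.36 ± 0.36, Socs3 by 1.55 ± 0.23 and the phosphatase Ptpn6 by 0.68 ± 0.15. Socs2 (-1.47 ± 0.42), Cish (-0.78 ± 0.27) and the phosphatase Ptpn2 (-0.20 ± 0.16) were not called.

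Interferon regulatory factors carry the signal to later genes, and 6 of 9 fell. Irf1, an early target of interferon gamma, had levels of 3.16, 2.90 and 2.29 with the antibody and 7.75, 6.35 and 5.11 with IgG. All 3 antibody arrays were below all 3 IgG arrays, and they lay nearer to the untreated arrays at 2.09, 2.55 and 2.06. The fall was 3.62 ± 0.51 (12.3-fold, adjusted p = 0.00483). Irf8, a factor that shapes myeloid cells, stood at 0.63, 0.55 and -0.56 with the antibody and 6.08, 4.96 and 3.27 with IgG. It fell by 4.56 ± 0.55, or 23.6-fold, the largest of the 9, with no overlap of the arms. Irf7 fell by 4.08 ± 0.55, Irf5 by 1.89 ± 0.18, Irf9, a DNA-binding partner of Stat2, by 1.66 ± 0.17, and Irf2 by 1.27 ± 0.28. Irf3 (0.04 ± 0.08), which is activated by phosphorylation and known to be expressed constitutively, and the lymphoid factor Irf4 (-0.29 ± 0.32) were not called. Without day 3, 4 of the 9 were called lower; without day 5, none of these 9 and none of the feedback inhibitors.

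The promoters of genes on both levels of the cascade were read for the GAS and ISRE motifs. RefSeq promoter sequence of build GRCm38.p6 was at hand for 10614 of the 17044 genes, and the 250 bases before each start were searched on both strands for TTCNNNGAA, the GAS motif, for GAAANNGAA, a core of the ISRE, and for CACGTG, an E-box with the same number of fixed letters as the GAS. Below are 5 genes that fell, chosen because they hold a match and because each stands for a step described here: both IRFs above, the inhibitor Socs1, the guanylate-binding protein Gbp2 and the immunity-related GTPase Igtp. Capitals mark the matches.
Irf1, chr11:53769764-53770013, plus strand: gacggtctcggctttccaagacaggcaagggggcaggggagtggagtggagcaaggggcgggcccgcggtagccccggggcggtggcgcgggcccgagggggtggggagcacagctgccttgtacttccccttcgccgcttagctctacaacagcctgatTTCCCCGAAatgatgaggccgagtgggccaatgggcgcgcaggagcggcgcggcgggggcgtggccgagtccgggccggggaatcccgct
Irf8, chr8:120736108-120736357, plus strand: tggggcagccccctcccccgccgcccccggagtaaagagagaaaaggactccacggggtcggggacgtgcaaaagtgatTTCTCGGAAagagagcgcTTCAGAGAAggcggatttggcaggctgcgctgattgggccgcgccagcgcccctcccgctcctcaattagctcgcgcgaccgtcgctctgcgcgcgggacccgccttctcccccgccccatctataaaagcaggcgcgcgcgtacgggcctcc
Socs1, chr16:10785537-10785786, minus strand: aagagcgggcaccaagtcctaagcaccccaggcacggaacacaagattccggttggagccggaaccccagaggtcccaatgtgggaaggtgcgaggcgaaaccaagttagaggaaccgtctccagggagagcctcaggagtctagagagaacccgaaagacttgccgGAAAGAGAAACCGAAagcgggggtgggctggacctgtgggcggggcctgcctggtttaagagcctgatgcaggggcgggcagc
Gbp2, chr3:142620413-142620662, plus strand: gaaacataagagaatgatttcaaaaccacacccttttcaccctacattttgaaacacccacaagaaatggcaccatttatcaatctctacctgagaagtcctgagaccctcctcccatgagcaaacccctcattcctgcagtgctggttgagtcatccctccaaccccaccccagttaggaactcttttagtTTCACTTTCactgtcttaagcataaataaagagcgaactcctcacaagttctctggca
Igtp, chr11:58199306-58199555, plus strand: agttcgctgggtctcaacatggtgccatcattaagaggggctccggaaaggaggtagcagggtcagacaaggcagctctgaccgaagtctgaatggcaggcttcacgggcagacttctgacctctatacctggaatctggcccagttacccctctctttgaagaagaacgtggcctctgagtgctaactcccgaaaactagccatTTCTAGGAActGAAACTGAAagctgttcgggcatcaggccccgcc
The Irf1 window held 1 GAS, whose first base lies 90 bases before the start, and Irf8 held 2, at 171 and 153 bases. In Socs1 a pair of ISRE-like matches at 83 and 77 bases overlapped in a single run, and Gbp2 had 1 on the reverse strand at 58 bases. Igtp had both, a GAS at 45 bases and an ISRE-like match at 34. A second listed start of Irf1 and of Irf8 held no match to these letters.

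Over all windows of tested genes, 6.11% held a GAS match, 6.31% an ISRE-like match and 8.03% an E-box. Among the 889 windows of genes that fell, the shares were 9.00%, 14.1% and 4.95%, and among the 895 of genes that rose 4.47%, 5.36% and 9.5%. In the 89 windows of the 73 genes with a fitted fall of at least 8-fold, dim genes included, a group cut after the values were seen, 16.9% held a GAS match, 36.0% an ISRE-like match and 1.12% an E-box. Both interferon motifs in the same window occurred in 10.1% of these, against 0.623% of all windows. These shares carry no test, windows of a gene can overlap, and a match is not evidence of binding.

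The 2 largest falls were those of interferon-induced GTPases, which attack the vacuoles of intracellular pathogens. All 9 tested guanylate-binding proteins fell, with a median of -4.76. Gbp2 (probe at chr3:142575141-142575200, mouse build mm8) stood at 0.65, 0.07 and -1.66 with the antibody and 7.19, 5.24 and 3.07 with IgG. The highest antibody array was below the lowest IgG array by more than 2 log2 units, and the untreated arrays lay at -1.05, 0.48 and -1.52. Gbp2 fell by 5.48 ± 0.74, or 44.7-fold (adjusted p = 0.00422). Gbp6 (chr5:105455567-105455626) fell by 7.15 ± 0.90, or 142-fold, the largest fall of any gene tested, and its neighbour Gbp4 (chr5:105358363-105358422) by 7.11 ± 0.86. Both were well above background on all 3 IgG arrays but on 2 and 1 of the antibody arrays. Gbp8 fell by 5.00 ± 1.00, Gbp5 by 4.76 ± 0.74, Gbp3 by 4.33 ± 0.52, Gbp7 by 3.65 ± 0.48 and Gbp9 by 2.53 ± 0.49. Gbp2b was not well above background with the antibody and was at least 1.46-fold lower. The list's median narrowed over the days, from -5.61 on day 3 to -5.17 and -3.33. The summed signal of the 9 genes, in units of the array's 75th percentile, ran from 1.11 to 3.23 with the antibody, from 18.7 to 242 with IgG and from 1.07 to 2.44 in untreated tumours.

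All 7 tested immunity-related GTPases fell as well. Iigp1 fell by 6.27 ± 0.81, Tgtp1 by 5.60 ± 0.66, Igtp by 5.16 ± 0.61, Irgm2 by 4.42 ± 0.48, Irgm1 by 3.61 ± 0.42 and the giant GTPase Gvin1 by 3.12 ± 0.47. Irgb10, not well above background on any antibody array, was at least 4.85-fold lower. Igtp levels were 2.74, 2.14 and 0.25 with the antibody and 8.39, 6.97 and 5.25 with IgG, without overlap. The untreated levels were 0.60, 2.04 and 0.65, so that the antibody array of day 3 lay above them and those of days 5 and 7 were close to or below them. Without day 3, 6 of the 9 guanylate-binding proteins and 5 of the 7 immunity-related GTPases were called, and without day 5 none.

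**Figure D2:**
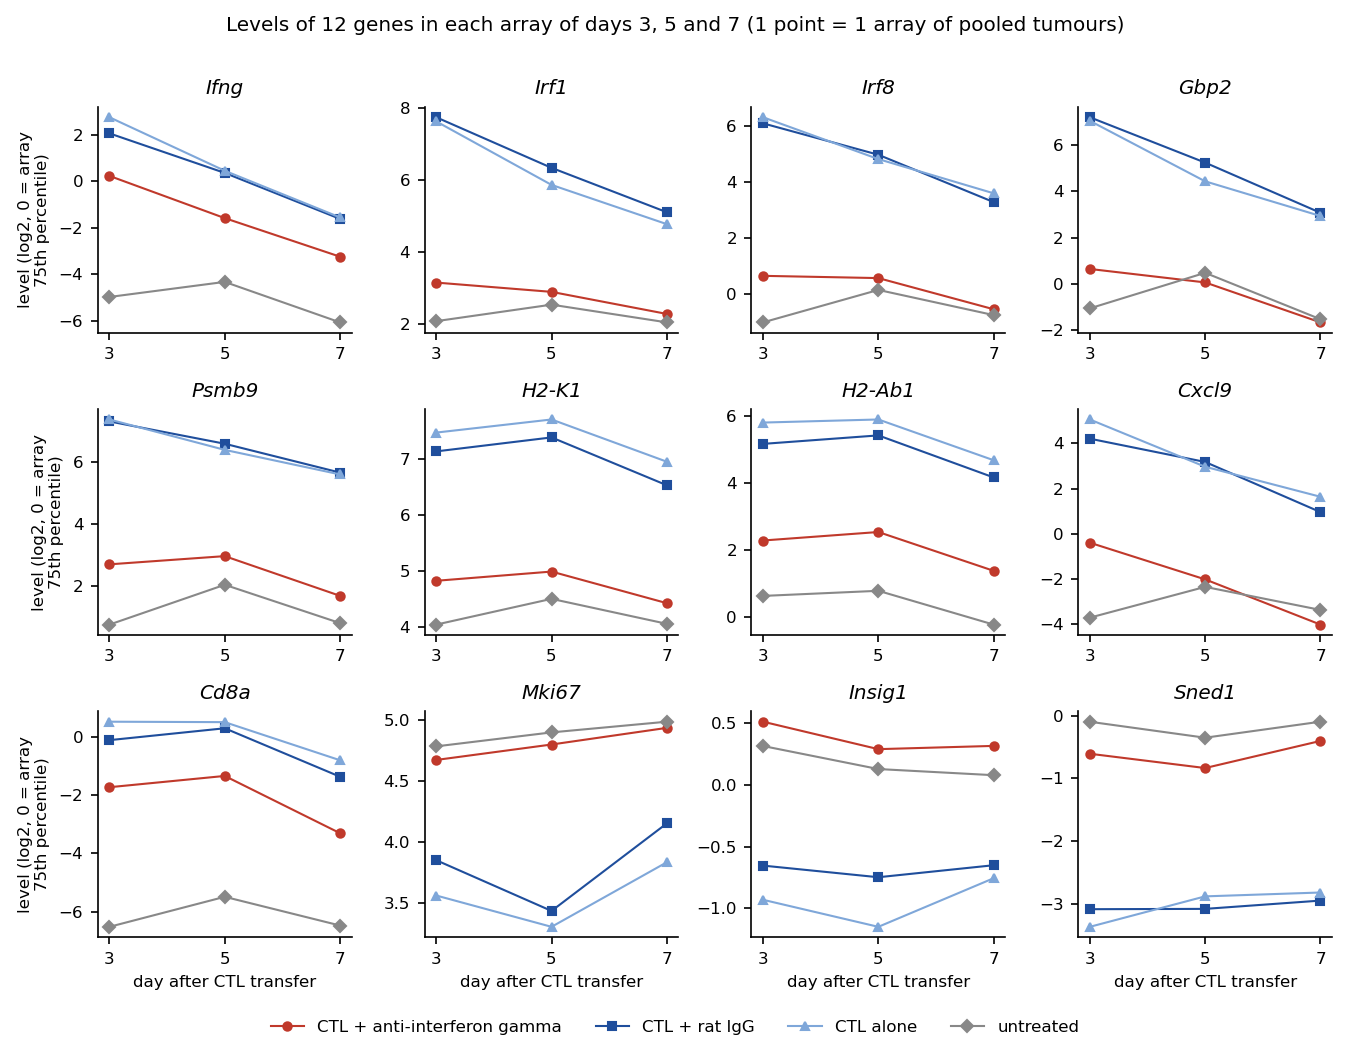
Level of 12 genes (vertical axes, log2 relative to the array's 75th percentile, each panel with its own scale) against the day after CTL transfer, with 1 point per array. In the panels of interferon-induced genes the antibody points lie nearer to the untreated ones than the IgG points, which lie near those of CTLs alone; Ifng and Cd8a with the antibody lie between the untreated arrays and both CTL arms, and Mki67, Insig1 and Sned1 run the other way.

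Genes of antigen presentation by MHC class I fell at each step from peptide cutting to the cell surface. Of 13 class I chains tested, 12 fell, with a median of -2.29. H2-K1, a classical heavy chain that presents peptides to CD8 T cells, had levels of 4.83, 4.99 and 4.43 with the antibody and 7.13, 7.38 and 6.53 with IgG. The arms were more than 1 log2 unit apart at their nearest points, and the antibody arrays stayed a little above the untreated ones (4.05, 4.50 and 4.06). H2-K1 fell by 2.27 ± 0.13 (4.82-fold, adjusted p = 0.000155), H2-D1, the second classical chain of this strain, by 2.17 ± 0.12, and the shared light chain B2m by 1.63 ± 0.17. The nonclassical chains H2-T23, a ligand of inhibitory NK receptors, and Cd1d1, which presents lipids, fell by 2.87 ± 0.28 and 1.38 ± 0.30. Peptide transport and loading genes fell too: Tap1 and Tap2, which form the transporter, fell by 3.07 ± 0.44 and 2.96 ± 0.39, the bridging factor Tapbp by 2.32 ± 0.36, the peptide editor Tapbpl by 2.65 ± 0.49 and the trimming enzyme Erap1 by 2.01 ± 0.34. The general chaperones Canx and Calr rose, by 0.61 ± 0.09 and 0.44 ± 0.09.

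The proteasome showed a split. Psmb9, a catalytic subunit of the immunoproteasome encoded beside Tap1, stood at 2.71, 2.98 and 1.70 with the antibody and 7.32, 6.60 and 5.67 with IgG. It fell by 4.06 ± 0.39 (16.7-fold, adjusted p = 0.00136), and the lowest IgG array exceeded the highest antibody array by over 2 log2 units. The remaining catalytic subunits Psmb8 and Psmb10 fell by 3.99 ± 0.37 and 2.71 ± 0.34, and the activator subunits Psme1 and Psme2 by 1.81 ± 0.25 and 1.91 ± 0.24. None of 14 constitutive proteasome genes was called by limma, with 3 at an unadjusted p below 0.05; their changes ran from -0.47 to 0.02, and the fits in the alternatives called none of them either. Without day 5, 5 of the class I chains, 1 of the 5 immunoproteasome genes and none of the loading genes were called lower, and without day 3, 11, 5 and 5. Of the rises of Canx and Calr, 0, 0 and 1 passed without day 3, 5 or 7.

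Genes of MHC class II fell, H2-Ab1 by nearly the same amount on each day. H2-Ab1, the beta chain of I-A, had levels of 2.28, 2.53 and 1.37 with the antibody and 5.17, 5.43 and 4.17 with IgG. The differences on days 3, 5 and 7 were -2.89, -2.89 and -2.80, and the change of -2.86 ± 0.09 had the lowest adjusted p of all genes (1.58e-05). H2-Aa fell by 3.35 ± 0.16, H2-Eb1 by 2.94 ± 0.15, the invariant chain Cd74 by 2.89 ± 0.14 and H2-DMa, which exchanges peptides, by 3.84 ± 0.37. Ciita, the transactivator that class II genes require, stood at -1.63, -1.60 and -2.71 with the antibody and 3.95, 2.65 and 0.72 with IgG, and fell by 4.42 ± 0.49 with no overlap of the arms. The protease Ctss, which cuts the invariant chain, fell by 1.62 ± 0.27. Of 10 class II genes tested, 9 fell and H2-Oa was not called. Levels with the antibody stayed above those of untreated tumours, where H2-Ab1 lay at 0.62, 0.77 and -0.24, a difference of 1.68 ± 0.09 (adjusted p = 0.000695), and H2-Aa, H2-Eb1 and Cd74 were also called higher than untreated. The summed class II level was 15.2 to 31.0 with the antibody, 88.6 to 202 with IgG and 6.20 to 9.46 without CTLs. Of the 10 genes, 8, 4 and 9 were called lower without day 3, 5 or 7.

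Among the chemokines, the ligands of Cxcr3 attract activated T cells and are classical targets of interferon gamma. Cxcl9 (probe at chr5:93398365-93398424, build mm8) had levels of -0.40, -2.02 and -4.02 with the antibody and 4.21, 3.18 and 0.96 with IgG. All antibody arrays lay below all IgG arrays, and levels in both arms were lower on later days. Cxcl9 fell by 4.92 ± 0.72, or 30.3-fold (adjusted p = 0.00564). Cxcl10 and Cxcl11 were lower on each of the 3 days and their arms did not overlap, but the changes of -2.46 ± 0.80 and -3.26 ± 1.13 missed the threshold (adjusted p = 0.0840 and 0.0998). On day 7 alone the median difference of the 3 ligands was -0.54, against -4.60 on day 3. Cxcl9 itself did not narrow from day 3 to day 7, when it stood at -4.02 with the antibody and 0.96 with IgG. Of 20 other chemokines, 9 fell and none rose. Ccl5, made by T cells, fell by 2.59 ± 0.33, the inflammatory chemokines Ccl3 and Ccl4 by 2.56 ± 0.61 and 3.02 ± 0.60, the monocyte attractants Ccl2 and Ccl7 by 1.31 ± 0.27 and 1.77 ± 0.31, and the membrane-bound Cxcl16 by 2.38 ± 0.19. Cxcl14 was at least 3.58-fold lower. Of 12 receptors, 5 fell, among them Ccrl2 (-3.73 ± 0.40) and Ccr2 (-1.63 ± 0.28), whereas Cxcr3 itself rose by 0.91 ± 0.21. Calls of lower chemokines numbered 4, 1 and 4, and of lower receptors 2, 0 and 3, without day 3, 5 or 7; the rise of Cxcr3 did not pass in any of these 3 cases.

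Antiviral genes, which are shared with type I interferon, fell almost throughout. Of 31 tested, 27 were called lower, none higher, and all 31 were lower on all 3 days, with a median of -2.42. Among all 17044 genes, 4049 were lower on all 3 days. Zbp1, a sensor of Z-form nucleic acids that can start cell death, stood at 0.09, -1.19 and -3.10 with the antibody and 6.26, 5.04 and 3.20 with IgG. It fell by 6.23 ± 0.81 (75.3-fold, adjusted p = 0.00386), and the antibody arrays spanned the levels of the untreated ones (-2.85, -1.20 and -1.63). The oligoadenylate synthetase-like gene Oasl2 fell by 4.79 ± 0.52, Oas3 by 2.57 ± 0.26, Ifit3 by 3.87 ± 0.53, the RNA sensors Dhx58 and Ifih1 by 3.86 ± 0.55 and 2.31 ± 0.36, and the membrane protein Ifitm3 by 2.26 ± 0.30. Ifi44 was not well above background with the antibody and was at least 17.8-fold lower. Rsad2 (-1.63 ± 0.45, adjusted p = 0.0505), Ifit1 (-1.97 ± 0.56), Isg20 (-1.94 ± 0.63) and Mx1 (-2.54 ± 1.16) were not called. Of 6 genes of ubiquitin-like modification, 5 fell: Ubd, encoding the modifier FAT10 that marks proteins for the proteasome, by 6.02 ± 0.63, Isg15 by 3.40 ± 0.54, and its enzymes Ube2l6 and Uba7 by 2.80 ± 0.58 and 1.85 ± 0.33. Ubd levels were -2.62, -3.77 and -6.14 with the antibody and 2.78, 2.59 and 0.16 with IgG, without overlap. In the p200 and Schlafen families 6 of 7 fell, including the DNA sensors Ifi205 and Ifi204 by 4.64 ± 0.66 and 4.47 ± 0.55 and the T cell quiescence gene Slfn2 by 2.50 ± 0.32. Without day 3, 20 of the antiviral, 3 of the ubiquitin-like and 5 of the p200 and Schlafen genes were called lower, and without day 5 none.

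**Figure D3:**
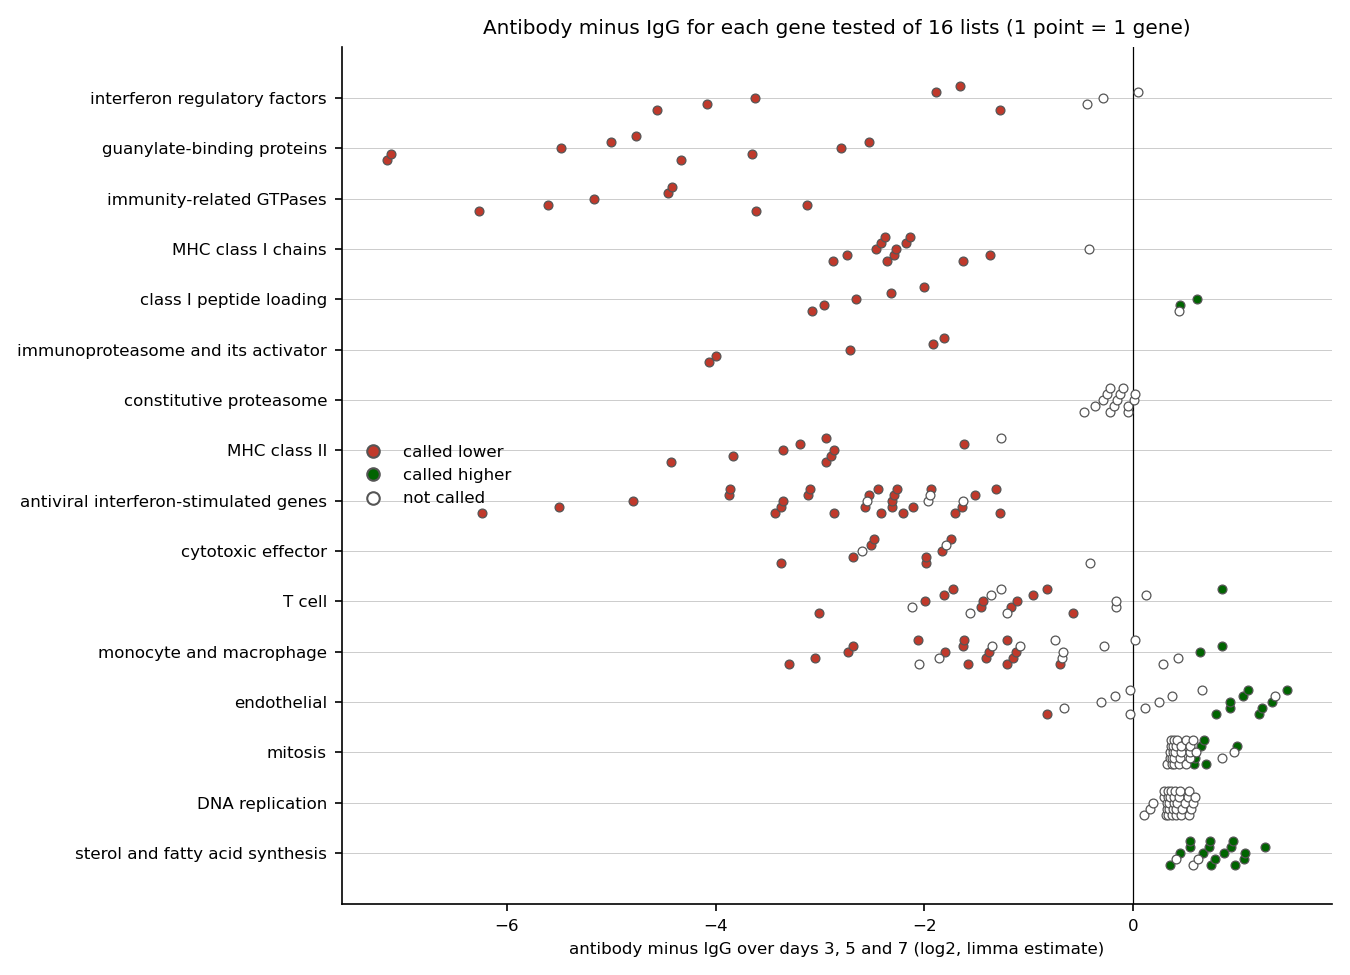
Antibody minus IgG change of each tested gene (log2, horizontal axis) in 16 lists, with filled points for genes that passed the test. The interferon-induced families lie wholly or almost wholly to the left of 0, while 3 of 8 class I peptide loading genes lie to the right. The constitutive proteasome runs from -0.47 to 0.02 without a call, and sterol synthesis lies wholly to the right.

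Inhibitory ligands and enzymes known to be induced by the pathway fell in part. Cd274, encoding PD-L1, the ligand of the T cell inhibitor PD-1, had levels of -0.16, -0.39 and -0.57 with the antibody and 3.32, 2.65 and 1.22 with IgG. No antibody array reached an IgG array, though the gap narrowed from day 3 to day 7, and untreated tumours lay at -0.52, -0.34 and 0.28. Cd274 fell by 2.77 ± 0.50, or 6.81-fold (adjusted p = 0.0117). Of 15 checkpoint genes 8 fell, among them Vsir, encoding VISTA (-1.59 ± 0.27), Havcr2, encoding TIM-3 (-1.09 ± 0.15), Lgals9, encoding galectin-9 (-1.20 ± 0.30), and Tnfrsf14, at least 6.21-fold lower. Cd276, encoding B7-H3, rose by 0.71 ± 0.17, and the receptors Pdcd1 (-0.94 ± 0.35) and Lag3 (-1.13 ± 0.44) were not called. Ido1, which degrades tryptophan, was not well above background with the antibody and was at least 2.08-fold lower. Irg1, which makes itaconate in macrophages and is now named Acod1, fell by 4.52 ± 0.84, and Gch1, which makes the cofactor of nitric oxide synthesis, by 0.75 ± 0.20. Arg1 (-1.91 ± 0.59) was not called, and Nos2 was too dim to be tested. Without day 3 or day 5 no checkpoint gene passed the test, and without day 7, 7 fell while the rise of Cd276 was not called.

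Cell death and complement genes of the response fell in part. Of 26 caspase, gasdermin and death genes 12 fell and none rose: the inflammatory caspases Casp12, Casp4 and Casp1 by 4.62 ± 0.41, 2.63 ± 0.55 and 2.56 ± 0.26, the pore-former Gsdmd by 2.90 ± 0.48, the necroptosis effector Mlkl by 1.87 ± 0.30 and the death receptor Fas by 1.92 ± 0.51. The apoptotic caspase Casp8 (-0.30 ± 0.20) was not called. Of 19 complement genes 10 fell, including C3 by 1.59 ± 0.25, C4b by 3.19 ± 0.22, Cfb by 2.17 ± 0.34 and the inhibitor Serping1 by 2.85 ± 0.57. C5ar1, the receptor of the anaphylatoxin C5a on myeloid cells, went the other way: it stood at -2.67, -1.49 and -1.67 with the antibody and -6.00, -4.12 and -4.21 with IgG, above IgG on each day, and rose by 2.83 ± 0.57 (adjusted p = 0.0173). Only 1 of the 3 IgG arrays was well above background for it and no untreated one, against which the antibody arm was at least 5.47-fold higher. With normexp background correction and quantile scaling the rise was 0.95, and without day 5 or day 7 it did not pass the test. Without day 3, 5 or 7 the death list gave 4, 0 and 10 falls and the complement list 6, 1 and 8.

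Of 21 TNF ligands and receptors 7 fell and none rose. Tnf was not well above background with the antibody and was at least 4.17-fold lower, and Tnfsf10, encoding TRAIL, at least 1.72-fold. The costimulatory receptor Cd40 fell by 2.31 ± 0.31, Ltb by 1.90 ± 0.25 and the decoy receptor Tnfrsf11b by 1.53 ± 0.15. Of 24 interleukin and receptor genes 12 fell: the interleukin 18 antagonist Il18bp by 4.04 ± 0.49, Il1b by 4.06 ± 0.92, its antagonist Il1rn by 3.17 ± 0.41, and the receptor chains Il12rb1, Il2rb and Il7r by 3.88 ± 0.40, 2.03 ± 0.38 and 2.60 ± 0.47. Il6st, the shared signalling chain of the interleukin 6 family, and Tgfb3 rose by 0.40 ± 0.10 and 0.61 ± 0.13. Without day 3 the falls numbered 3 and 6, and without day 5 none. The rises of Il6st and Tgfb3 did not pass without day 3, 5 or 7.

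Markers of T cells and other leukocytes differed along with these genes, and their part in the results above was not tested. Cd8a, which marks cytotoxic T cells, had levels of -1.73, -1.35 and -3.31 with the antibody and -0.12, 0.29 and -1.37 with IgG. It was lower with the antibody on each day, but the arms touched, since the antibody array of day 5 exceeded the IgG array of day 7. Cd8a fell by 1.73 ± 0.28 (3.31-fold, adjusted p = 0.00789) and was still at least 4.81-fold above untreated tumours (-6.51, -5.49 and -6.47), where no array was well above background. Of 20 T cell markers 11 fell and 1 rose, with a median of -1.23, or -1.14 with dim genes at their bound. The receptor component Cd3e fell by 0.58 ± 0.14, the kinases Lck and Zap70 by 1.46 ± 0.31 and 1.81 ± 0.33, and Thy1 by 1.44 ± 0.37. Cd8b1, the partner chain of Cd8a, was called higher at 0.85 ± 0.09, but its probes disagreed (-1.77 and 0.85) and their mean was -0.46. The helper T cell marker Cd4 (-0.16 ± 0.21) was not called, and Foxp3 did not pass the filter. Summed over the 20 genes, the T cell level was 5.80 to 9.26 with the antibody, 8.99 to 16.7 with IgG, 11.2 to 19.5 with CTLs alone and 4.86 to 5.95 without CTLs. The T cell falls numbered 2, 0 and 11 without day 3, 5 or 7.

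Effector genes of T and NK cells were lower as well. Of 11 tested, 8 fell with a median of -1.99, and their summed level was 1.66 to 6.55 with the antibody against 12.8 to 21.7 with IgG and 0.966 to 1.38 in untreated tumours. Prf1, which encodes the pore-former perforin, had levels of -2.77, -3.91 and -4.48 with the antibody and -1.81, -1.13 and -2.26 with IgG. It fell by 1.99 ± 0.39 (adjusted p = 0.0159). Gzma fell by 3.37 ± 0.56, Nkg7 by 1.99 ± 0.37, Fasl by 1.83 ± 0.32 and Tbx21, the factor that directs type 1 responses, by 2.69 ± 0.59. Gzmb, at -0.49, -1.34 and -3.54 with the antibody and 1.89, 1.59 and -1.06 with IgG, was lower on each day, but its arms overlapped and the change of -2.60 ± 0.77 was not called (adjusted p = 0.0627). Gzmk (-0.42 ± 0.77) was not called. Of 5 NK markers 3 were called lower; Klrk1, encoding NKG2D, fell by 2.32 ± 0.40, while Klra8 and Klrb1c were at least 1.16 and 1.22-fold lower, and Ncr1 did not pass the filter. The summed NK level was 0.146 to 0.402 against 0.585 to 1.69, with dim signals taken as measured. The median of the NK list was -2.05, or -0.29 with dim genes at their bound. Of the NK genes, 1, 1 and 2 were called lower without day 3, 5 or 7. In turn without day 3, 5 or 7, 4, 0 and 6 effector genes were called lower.

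Of 29 monocyte and macrophage markers, 16 fell and 2 rose. The Fc receptors Fcgr1 and Fcgr4, which are themselves induced by interferon gamma, fell by 2.73 ± 0.23 and 3.29 ± 0.30, the scavenger receptor Msr1 by 2.06 ± 0.20, Adgre1, encoding F4/80, by 1.41 ± 0.30, and Csf1r by 1.12 ± 0.21. Tlr4 and Chil3 rose by 0.64 ± 0.12 and 0.85 ± 0.21, and Cd68 (-0.75 ± 0.32), Lyz2 (-0.69 ± 0.20) and the mannose receptor Mrc1 (-0.28 ± 0.31) were not called. The summed level of the list overlapped, at 208 to 261 with the antibody and 219.6 to 295 with IgG. Without day 3, 5 or 7, 11, 0 and 10 of these genes were called lower and none higher.

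Smaller marker lists were read the same way. Of 11 dendritic cell markers 3 fell (Ccr7, Cd83 and Bst2, of which Bst2 is also antiviral), and of 6 B cell markers 2, Cd79b and Cd22, which were at least 1.48 and 1.25-fold lower. Of 14 neutrophil markers 5 passed the filter, and S100a8 and Csf3r were at least 6.76 and 1.29-fold lower. Their summed level was 0.299 to 0.687 with the antibody and 1.33 to 50.3 with IgG, where the day 7 array alone made the high end; it was 2.61 on day 5. Without day 3, 5 or 7, 2, 0 and 2 dendritic cell genes, 0, 0 and 1 B cell genes and 2, 0 and 1 neutrophil genes were called lower, and normexp left 0 of the B cell genes. No marker of mast cells and related granulocytes, lymphatic vessels, keratinocytes, skeletal muscle, erythroid cells or platelets was called by limma; at an unadjusted p below 0.05 these lists held 0, 0, 1, 5, 0 and 1 genes. The alternatives called at most 2 muscle genes and 1 platelet gene. Erythroid markers summed to 66.8 to 514 and 50.6 to 134, with an untreated range of 106 to 1098.

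**Figure D4:**
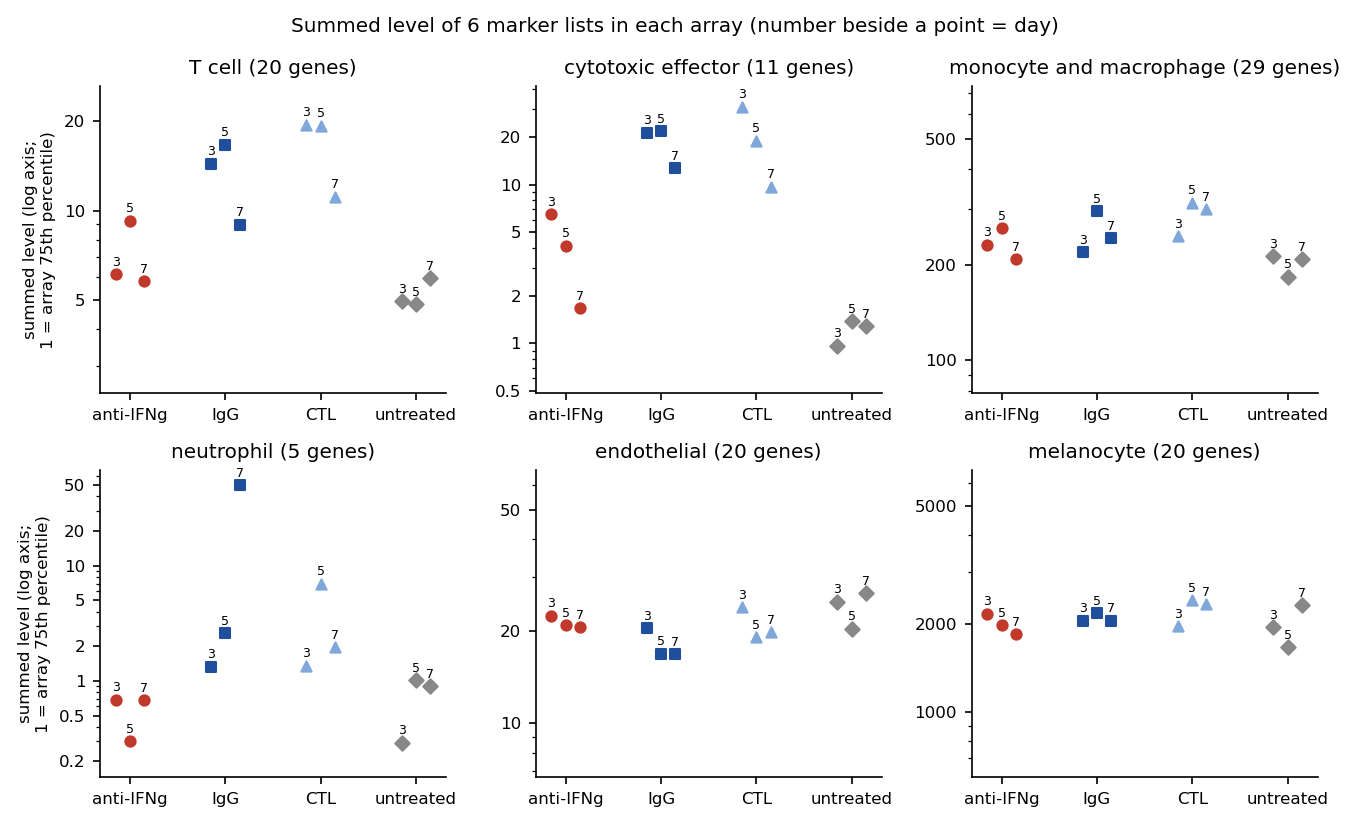
Summed level of 6 marker lists in each array (vertical axis, logarithmic, 1 = the array's 75th percentile), by arm, with the day beside each point. Cytotoxic effector sums with the antibody lie between those of IgG and untreated arrays, melanocyte sums overlap in all arms, and the IgG array of day 7 stands apart for neutrophil markers.

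Most melanocyte genes were not called, as was so for all genes tested, of which 5.93% fell and 6.62% rose. Pmel, whose product the CTLs recognise, stood at 8.86, 8.71 and 8.60 with the antibody and 8.57, 8.77 and 8.56 with IgG, with overlapping arms and a change of 0.09 ± 0.18 (adjusted p = 0.763), and Tyr, encoding tyrosinase, differed by 0.65 ± 0.28 (adjusted p = 0.160). Of 20 melanocyte genes, Kit rose by 1.07 ± 0.18 and Cited1 fell by 1.22 ± 0.21, and 18 were not called. Their summed level was 1839 to 2162 with the antibody and 2046 to 2165 with IgG, which places the defining transcripts of the labelled tumour far above the 75th percentile on all 6 arrays. Of 15 housekeeping genes 2 rose: Tfrc, the transferrin receptor, by 1.45 ± 0.14, and Gusb by 0.82 ± 0.13. The other 13 were not called. Without day 3 or day 5 neither melanocyte gene passed, and 1 and 0 of the housekeeping genes did.

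Some genes of cell division rose, by small amounts. Mki67, which marks cycling cells, had levels of 4.67, 4.80 and 4.93 with the antibody and 3.85, 3.43 and 4.15 with IgG. Each antibody array exceeded each IgG array, and the untreated arrays lay with the antibody ones at 4.78, 4.90 and 4.98. Mki67 rose by 0.99 ± 0.14 (adjusted p = 0.00499). Of 34 mitosis genes 6 rose, and 32 were higher on all 3 days with a median of 0.45. Of all 17044 genes, 5662 were higher on all 3 days. Those mitosis genes called included the kinetochore genes Cenpe (0.68 ± 0.15), Cenpf (0.65 ± 0.16) and Cenpa (0.59 ± 0.16), the spindle gene Hmmr (0.58 ± 0.10) and the phosphatase Cdc25b (0.70 ± 0.16). None of 34 DNA replication genes was called, although 29 were higher on all days, 10 had an unadjusted p below 0.05 and their changes ran from 0.11 to 0.59. Alternatives called up to 2, and 4 without day 7. The median of the replication list was 0.39. IgG minus CTLs alone, with interferon gamma blocked in neither arm, gave medians of 0.39 for replication and 0.31 for mitosis genes. Of 18 cell cycle regulators 3 fell and 4 rose. The growth arrest gene Gadd45b fell by 2.06 ± 0.24 and Btg1 by 0.81 ± 0.21. Skp2, which targets the inhibitor p27 for degradation, rose by 0.86 ± 0.19, Cks1b, its cofactor, by 0.55 ± 0.13, Myc by 0.52 ± 0.13 and the inhibitor Cdkn1c by 0.82 ± 0.20. Cdkn1a, encoding p21, was not called at 0.08 ± 0.17 (adjusted p = 0.775). Without day 3 or day 5 no mitosis gene passed, and without day 7, 7 did. Over all genes, the 1129 rises became 67, 6 and 630 without day 3, 5 or 7. The cell cycle regulators gave 1, 0 and 2 falls and 0, 0 and 2 rises without day 3, 5 or 7, and no rise with the 6 arrays of both arms alone or with no filter.

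Part of the blood vessel genes rose. Kdr, encoding the main receptor of vascular endothelial growth factor, had levels of -2.98, -2.64 and -2.91 with the antibody and -4.63, -4.17 and -4.16 with IgG. The arms did not overlap. Kdr rose by 1.47 ± 0.24 (2.78-fold, adjusted p = 0.00806), and untreated tumours lay at -2.07, -2.71 and -1.77. Of 20 endothelial markers 9 rose, Cd34 by 1.21 ± 0.22, the sialomucin Emcn by 1.05 ± 0.17, the guidance receptor Robo4 by 1.10 ± 0.24, the tight junction gene Cldn5 by 0.93 ± 0.23 and Egfl7 by 0.79 ± 0.10; Cdh5, encoding VE-cadherin, was at least 1.88-fold higher. Icam2 fell by 0.83 ± 0.15, and Pecam1 (-0.18 ± 0.39) and Vwf (0.11 ± 0.11) were not called. The summed endothelial level was 20.6 to 22.5 with the antibody and 16.8 to 20.5 with IgG, so the lowest antibody array lay just above the highest IgG array. CTLs alone gave 19.2 to 23.9, which overlapped the antibody arm, and their day 3 array exceeded every antibody array. Without day 3 or day 5 no endothelial gene was called higher, and without day 7, 7 were.

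Of 27 vessel growth genes 6 rose and 2 fell. Esm1, a marker of endothelial tip cells, rose by 2.15 ± 0.33, Angpt2, which loosens vessels for sprouting, by 0.71 ± 0.12, the venous receptor Ephb4 by 0.44 ± 0.09 and Notch4 by 0.83 ± 0.20. Efnb2, the arterial ligand of Ephb4, was at least 1.21-fold higher. Thbs1, an inhibitor of angiogenesis, was at least 3.20-fold lower, and Notch1 fell by 1.64 ± 0.37. Vegfa differed by 0.17 ± 0.26 and was not called. Of 14 collagen chains, the basement membrane chains Col4a1 and Col4a2 rose by 1.20 ± 0.17 and 1.02 ± 0.13, Col6a3 by 0.86 ± 0.23 and Col15a1 by 0.64 ± 0.17. The median of the collagen list was 0.11. Its summed level overlapped, at 8.95 to 12.2 with the antibody and 7.64 to 11.2 with IgG. CTLs alone gave 13.6 to 16.2 and untreated tumours 14.9 to 22.1. Of 11 pericyte and smooth muscle markers 4 rose: Kcnj8 by 1.80 ± 0.31, Notch3 by 1.17 ± 0.23, Mcam by 0.78 ± 0.18 and Cspg4, encoding NG2, by 1.60 ± 0.12, for which the probes disagreed (-0.45 to 1.60). Summed pericyte levels overlapped (28.5 to 31.6 and 28.0 to 32.0), as did fibroblast levels (144 to 169.9 and 140.1 to 170.4). Without day 3, 5 or 7 the vessel growth list gave 0, 0 and 4 rises and 1, 0 and 0 falls, the collagen list 0, 0 and 2 and the pericyte list 2, 0 and 2. Of 25 hypoxia and glycolysis genes, Pdk1, which diverts pyruvate from mitochondria, was the 1 called (0.60 ± 0.15), and it was not called without day 3, 5 or 7.

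Sterol and fatty acid synthesis was the list with the largest share of rises, 16 of 19. Insig1, a sensor of the sterol feedback, stood at 0.51, 0.29 and 0.32 with the antibody and -0.65, -0.75 and -0.65 with IgG. Every antibody array lay above every IgG array, and above the untreated array of the same day (0.32, 0.13 and 0.08). Insig1 rose by 1.06 ± 0.11 (2.08-fold, adjusted p = 0.00176). Srebf2, the transcription factor of the sterol genes, rose by 0.87 ± 0.09, as did genes it is known to control: Sqle, an enzyme of the sterol pathway, by 0.79 ± 0.09 and Cyp51 by 1.07 ± 0.16. On the fatty acid side the desaturases Scd1 and Scd2 rose by 1.26 ± 0.20 and 0.98 ± 0.12 and Fasn by 0.73 ± 0.16. Fdft1 (0.57 ± 0.18), Fdps (0.62 ± 0.20) and Acly (0.41 ± 0.15) were higher on each day and not called. All 19 genes were higher on all 3 days, as were 5662 of all 17044 genes. For 18 of the 19 every antibody array lay above every IgG array, as for 21.3% of all genes. The summed level was 559 to 594 with the antibody, 304 to 372 with IgG, 275 to 320.4 with CTLs alone and 469 to 549.7 without CTLs. Without day 3, 5 or 7, 2, 0 and 10 of the genes were called higher.

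Further large falls concerned genes outside the lists described above, and Prph among them belongs to a list of nerve markers. Apol6 (probe at chr15:76884283-76884342, build mm8), of the apolipoprotein L family, fell by 6.99 ± 0.97, or 127-fold, and Apol9b by 5.12 ± 0.46. Prph (chr15:98884900-98884959), encoding the neuronal intermediate filament peripherin, stood at -1.94, -3.36 and -4.30 with the antibody and 4.69, 2.88 and -0.53 with IgG. It fell by 5.55 ± 0.85 (adjusted p = 0.00671) with no overlap, and the antibody arrays spanned the untreated levels of -3.54, -2.94 and -4.02. None of 5 other nerve markers was called here, while normexp and the mean-variance trend each called 1 of them higher. Serpina3f, a protease inhibitor, was at least 10.2-fold lower.

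The largest rises were smaller than the largest falls. Sned1 (chr1:95131270-95131329), an extracellular matrix protein, had levels of -0.61, -0.84 and -0.40 with the antibody and -3.09, -3.09 and -2.95 with IgG. Each arm was steady over the days, and untreated tumours lay at -0.10, -0.35 and -0.10. Sned1 rose by 2.43 ± 0.15 (5.37-fold, adjusted p = 0.000266); its 3 probes differed in size, from 0.45 to 2.43. Tenm4, a teneurin of cell contacts, rose by 2.47 ± 0.19, with both probes alike, the water channel Aqp1 by 2.19 ± 0.51, the prokineticin receptor Prokr1 by 2.00 ± 0.35, the actin regulator Fhod3 by 1.95 ± 0.33, the protease Adamts20 by 1.89 ± 0.23 and the lipid transporter Abca12 by 1.88 ± 0.33. Igfbp3, which binds insulin-like growth factors, rose by 2.15 ± 0.29 on the brighter probe, while its second probe gave -0.18. Pcdh12, an endothelial protocadherin, was at least 2.59-fold higher, Epha2 at least 2.33-fold, Mmp15 at least 1.85-fold and Foxo3 at least 1.21-fold, since IgG arrays were not well above background for them. Of the 15 largest falls, 13, 0 and 15 were called without day 3, 5 or 7, and of the 15 largest rises, 6, 1 and 13; Sned1 passed in each case.

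Set against tumours without CTLs, few genes of the antibody arm passed the test. Of 17045 tested, 1 (0.00587%) was lower and 26 (0.153%) were higher, with 1177 at an unadjusted p below 0.05. This comparison shares the antibody arrays with the one above and is given beside it, not as further evidence. Ptprc, the pan-leukocyte marker CD45, was higher than untreated by 1.43 ± 0.19, the T cell gene Cd3d by 4.28 ± 0.53, with 1 of the 3 untreated arrays well above background, and the granule gene Nkg7 by 2.94 ± 0.37. No untreated array was well above background for Cd8a, the chemokine Xcl1 and the macrophage receptor Slamf8, which were at least 4.81, 3.59 and 3.98-fold higher. Of these, Cd8a, Nkg7, Ptprc and Slamf8 were also called lower than IgG. The genes called lower with the antibody had a median antibody minus untreated difference of 0.17, and those called higher one of -0.07. Both groups were chosen on the same antibody arrays, so these medians cannot show a return to untreated levels. Leaving out 1 day at a time gave 1 to 16 genes higher than untreated.

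The control IgG with CTLs was set against CTLs without antibody in the same way. Of 17044 genes, 2 (0.0117%) were lower and 0 (0%) higher by limma, with 3210 at an unadjusted p below 0.05; the alternatives gave 0 to 4 lower and 0 or 1 higher. The genes were Calm4, of the calmodulin-like family (-3.41 ± 0.24), and the transcript AK085112 (-1.25 ± 0.10). The spread over genes of the same-day difference was 0.82, 0.81 and 0.77 (SD, log2) for antibody minus IgG on days 3, 5 and 7, against 0.50, 0.61 and 0.55 for IgG minus CTL. For antibody minus untreated it was 0.58, 0.57 and 0.62.

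Because antibody was last given on day 2, the days were compared for a change in the effect. No gene had a slope of the antibody minus IgG difference over days that passed the test by limma (0 of 17044, 0%), the lowest adjusted p was 0.152, and 1234 genes had an unadjusted p below 0.05. None of the alternatives run for the slope called a gene. With dim genes taken as measured, the counts of genes at least 2-fold lower on a single day were 1112, 1348 and 1389 on days 3, 5 and 7, and those at least 2-fold higher 799, 630 and 418. These single-day counts have no replicate and carry no test.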

How the data were processed

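Cy3-labelled RNA of pooled tumours was hybridised to Agilent whole mouse genome arrays. The submitters' processing notes name Agilent Feature Extraction 9.5, and the file headers version 9.5.3.1. Per the file headers, the deposited intensity of a spot is linear, and its processed signal has the background subtracted. A log2 table that the authors deposited matched the log2 processed signal of each array at r = 1 up to a constant, with its 75th percentile near 0 and column medians from -3.54 to -3.14.

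Here each log2 processed signal was taken relative to the 75th percentile over 43379 non-control spots. Outlier spots were dropped and spots of a probe averaged. Probes had to be well above background on at least 3 of 14 arrays, and the probe with the highest mean stood for its gene, which gave 17045 genes, 7 of them with a missing value on some array. Of 41174 probes, 24496 were named by accession through a RefSeq gene table, which changed 4840 names, and 16678 kept the file's name. Probe coordinates are those of the files (mm8).

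The tests used limma 3.58.1 under R 4.3.3 (lmFit, eBayes, two-sided) on 12 arrays with arm and day as terms, 6 residual degrees of freedom and Benjamini-Hochberg adjustment at 0.05. The slope model added a linear day term per arm and had 3. Pairing comes from the day, which is also the slide; antibody and IgG arrays of a day deviated together from their arm means at r = 0.0937, 0.257 and 0.172 across genes on days 3, 5 and 7. Errors are SE. Where no array of an arm was well above background, the arm's level was replaced on each array by the lowest well-measured signal, or by its own signal if higher, and the fold is a bound. Summed levels add linear signals over a list, with dim genes taken as measured.

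The members, the gene lists and the tests were chosen with earlier results of these data known. Named genes are the 15 largest falls and 15 largest rises among called genes with an ordinary symbol, 1 sign on all days and detection on every array of an arm; the 2 to 6 lowest p of each list and its defining members; and further genes of the interferon response. Other genes were named after their values were seen. On simulated data, 68% of changes of 1 log2 unit and 98% of those of 2 were recovered for antibody minus IgG, with 10 false calls among 17045 genes. The simulation shifted 50 genes per size and drew independent normal noise with the spread of the fit itself. It checks the code under the model's own assumptions and cannot show how stable the calls in the real data are. The alternatives were other array sets, no day term, other background corrections and scalings, other filters, all probes averaged, a mean-variance trend and leaving out each day. A few genes are not reported here.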

Additional observations from a re-analysis of the deposited data

How the results depend on the processing

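The estimated antibody effects do not depend on which further arrays are fitted, whereas the number of calls does. Fitting all 14 arrays gave 1 gene lower and 1 higher than IgG, and the 6 arrays of both arms alone gave 609 and 328, of which 819 are among the 2140 calls. Leaving out a day gave 44 to 751 lower and 6 to 630 higher. Without the day term, the pairing of arrays by day and slide (no replicate block), 805 were lower and 919 higher, which is within 1.5 times of the reported counts. With no filter on dim probes, 451 were higher. Other settings stayed within 1.5 times, and 2040 of the calls were shared with the authors' table and 1786 with scaling to the array median. Against untreated tumours (1 lower, 26 higher), the lower count was 0 with all 14 arrays, without the day term and with normexp, 4 with median scaling, 2 with a mean-variance trend and 0 to 2 without a day. The higher count was 0 with all 14 arrays or without the day term, 9 with normexp or no filter, 50 with median scaling and 1 to 16 without a day. For IgG against CTLs alone (2 lower, 0 higher), the lower count was 4 with all 14 arrays or without the day term, 1 with normexp, 0 with the stricter filter or the trend, and 0 to 1 without a day; the higher count was 1 with quantile scaling and 0 to 1 without a day. The cause was not tested. Changes of direction touched small or disagreeing values: Cd8b1 was -0.46 with its probes averaged, Irf3 was -0.019 with normexp, and without a day Gzmk ran from -1.03 to 0.73, Pecam1 from -0.57 to 0.19, Vegfa from -0.040 to 0.32, Pmel from -0.011 to 0.16 and the melanocyte median from -0.032 to 0.13. Signal over background limits 141 of the falls and 68 of the rises to a bound. Medians of no other list tried changed direction.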
